A study of Mus musculus with 12 samples.

Results

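The transcripts of 7 cytokine genes were followed in cultured mouse mast cells, at rest and after 1 h of stimulation through FcϵRI, the high-affinity receptor for IgE. The genes were *Il3* and *Csf2*, which encode haematopoietic growth factors, and *Il4*, *Il13*, *Il5*, *Il31* and *Il25*, which encode cytokines of type 2 immunity. They were taken by symbol from the deposited table of read counts, in which 7 of 7 symbols were present among 16234 genes. The cells were bone marrow-derived mast cells (BMMCs), that is, mast cells grown from bone marrow of C57BL/6N mice aged 6 to 12 weeks, of both sexes, for 4 to 8 weeks in medium with IL-3 and SCF, each at 10 ng/ml. The mice carried a conventional knockout of *Elk4*, an Ets transcription factor of the ternary complex factor family, and the libraries were labelled wild type (WT, littermates), heterozygous (HZ) or knockout (KO). For stimulation, BMMCs were loaded overnight with anti-DNP IgE at 0.5 µg/ml and then received 100 ng/ml DNP-HSA, an antigen that crosslinks the IgE on its receptor, for 1 h. The other libraries are labelled untreated, are called unstimulated here, and carry no statement on whether IgE was present. Each of the 6 groups held 2 libraries, 12 in all. No label says whether the 2 replicates of a group came from separate mice or cultures, so the p-values measure the spread between these libraries, which may be technical.

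As background, IL-4 and IL-13 share a receptor chain and act through STAT6 to drive mucus production and other features of allergic inflammation. IL-3, GM-CSF (the product of *Csf2*) and IL-5 form a family that signals through a common beta chain and supports mast cells, myeloid cells and eosinophils. IL-31 is known for itch, and IL-25 is an alarmin that prompts other cells to make type 2 cytokines. Calcium-activated NFAT, AP-1 and GATA factors are the regulators best known to act on them. The medium of these cultures already held IL-3 protein, which RNA-seq does not measure.

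Counts on genes totalled 29697958 to 35531667 per library. Replicates of a group differed by more than sampling noise, with a chi-square per gene of 2.94 to 5.52, and no library was counted as a copy of another. *Elk4* had 1867 to 3238 counts per library, and its normalized counts of 63.5 to 93.2 CPM (counts scaled to library size with edgeR's TMM factors) did not follow the genotype labels. Reads summed over the gene cannot reveal a deletion inside it, so "KO" and "HZ" below name libraries labelled so. Over 80% of the cultured cells carried both CD117 and FcϵRI, per the labels. In the libraries, 10 of 10 mast cell markers were present in every group, with summed levels of 46700 to 57400 CPM. T cell markers (2 of 5 in the table), B cell markers (2 of 3) and neutrophil markers (4 of 5) had at most 6 counts in any library.

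*Il13* was by far the most abundant of these transcripts once cells were stimulated, and *Il5* stayed close to 0 throughout. Per transcript length, the stimulated levels ran from 714 to 947 FPKM (read counts scaled by gene length and library total) for *Il13*, and from 32.8 to 38.5 FPKM for *Il4*. *Csf2* followed at 16.3 to 25.7 FPKM, then *Il31* at 5.51 to 9.24 FPKM and *Il3* at 3.74 to 10.1 FPKM. *Il31* exceeded *Il3* in both stimulated WT libraries (8.50 and 8.62 against 6.77 and 7.47 FPKM), but in HZ and KO the ranges of these neighbours overlapped. *Il25* did not pass 0.513 FPKM and *Il5* did not pass 0.0836 FPKM in any library. In stimulated libraries, the other neighbours in this order did not overlap. Ranked by FPKM among all genes of its library, *Il13* stood between places 42 and 78 when stimulated and between places 3124 and 6235 when unstimulated. It made up 90.1% to 93.5% of the summed FPKM of the 7 genes in stimulated libraries, against 34.8% to 71.1% in unstimulated ones.

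**Figure D1:**
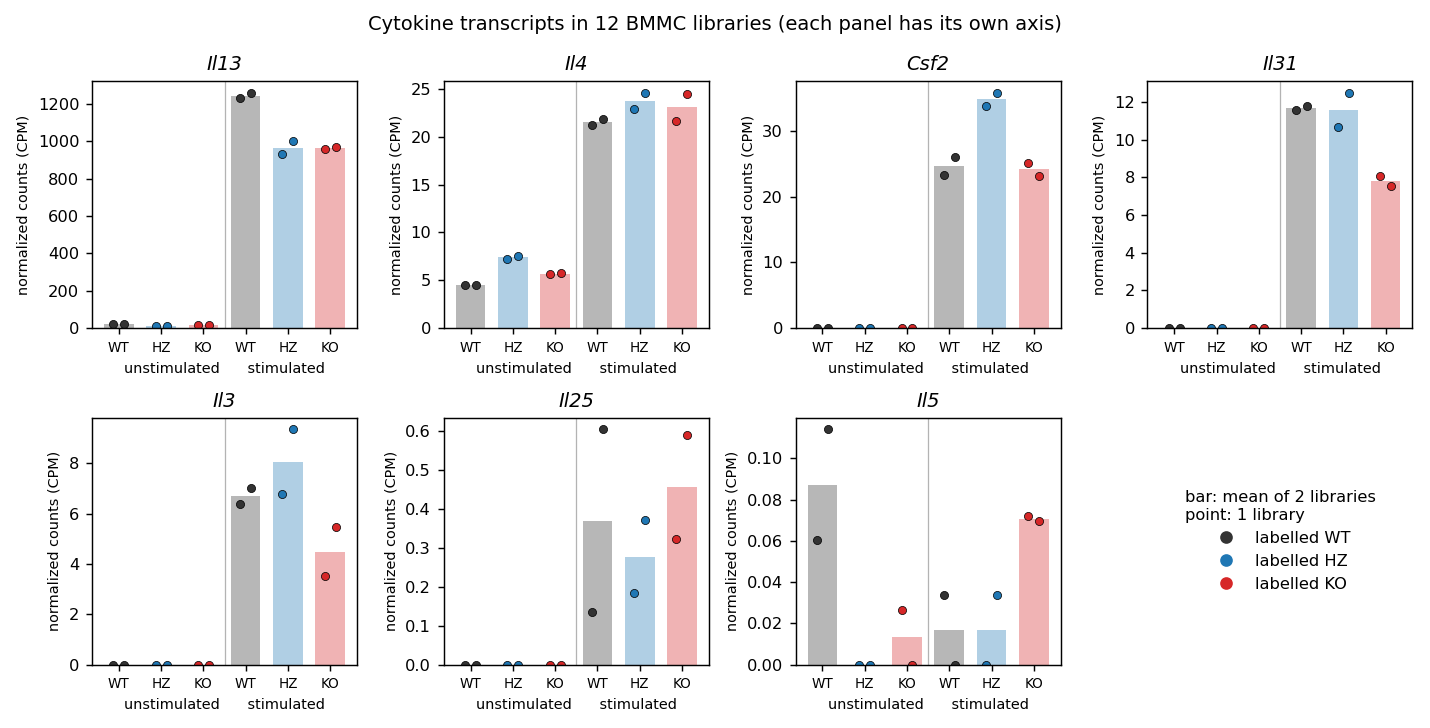
Normalized counts (CPM, vertical axis, a separate scale in each panel) of the 7 cytokine transcripts in the 12 libraries, by genotype label and stimulation. Bars are means of 2 libraries and points are single libraries. *Il4* and *Il13* had counts in every unstimulated library, whereas *Il3*, *Il31* and *Il25* had 0 there and *Il5* had at most 4 counts anywhere.

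The 250 bases before the annotated start are shown for 6 of the genes, because 5 of these rose together and *Il5*, a neighbour in the same cluster, did not pass the filter on low counts. The sequences are those of RefSeq on GRCm38.p6. They are not on GRCm39, the build named in the submitters' processing notes, and the positions were not converted. *Il3*, *Csf2*, *Il4*, *Il13* and *Il5* lie on chromosome 11 and *Il31* lies on chromosome 5, whereas the RefSeq table used here held no window for *Il25*. Capitals mark the core of an NFAT site, GGAAA on either strand (TTTCC when read on the other strand), and the TATA box TATAAA on either strand. The windows are chr11:53634703-53634952 for *Il13*, chr11:53618666-53618915 for the upstream of 2 annotated *Il4* starts, chr11:54249900-54250149 for *Csf2*, chr11:54267280-54267529 for *Il3* and chr5:123482624-123482873 for *Il31*, all on the minus strand, and chr11:53720544-53720793 on the plus strand for *Il5*.
Il13: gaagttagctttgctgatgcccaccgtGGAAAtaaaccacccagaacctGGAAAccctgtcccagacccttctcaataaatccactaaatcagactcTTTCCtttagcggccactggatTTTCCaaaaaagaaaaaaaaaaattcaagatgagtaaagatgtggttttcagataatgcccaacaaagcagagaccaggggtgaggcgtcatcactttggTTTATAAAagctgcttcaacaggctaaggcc
Il4: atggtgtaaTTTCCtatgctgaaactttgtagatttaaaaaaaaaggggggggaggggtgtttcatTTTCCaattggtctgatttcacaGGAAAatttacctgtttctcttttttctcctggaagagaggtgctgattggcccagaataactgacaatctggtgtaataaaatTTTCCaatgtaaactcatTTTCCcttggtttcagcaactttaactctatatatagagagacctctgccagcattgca
Csf2: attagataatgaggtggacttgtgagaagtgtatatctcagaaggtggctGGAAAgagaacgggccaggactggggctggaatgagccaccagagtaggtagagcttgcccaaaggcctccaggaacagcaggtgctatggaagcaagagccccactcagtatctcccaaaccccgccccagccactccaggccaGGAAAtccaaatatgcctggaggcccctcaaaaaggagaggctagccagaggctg
Il3: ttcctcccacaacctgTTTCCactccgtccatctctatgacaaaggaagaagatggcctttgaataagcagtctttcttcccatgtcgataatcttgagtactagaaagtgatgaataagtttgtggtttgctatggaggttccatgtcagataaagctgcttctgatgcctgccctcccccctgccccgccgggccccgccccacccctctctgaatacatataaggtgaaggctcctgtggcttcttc
Il31: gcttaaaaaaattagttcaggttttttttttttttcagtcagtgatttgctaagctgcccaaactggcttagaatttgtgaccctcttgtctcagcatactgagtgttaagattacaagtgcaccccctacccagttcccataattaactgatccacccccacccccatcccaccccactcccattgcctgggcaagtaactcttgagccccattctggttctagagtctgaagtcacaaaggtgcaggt
Il5: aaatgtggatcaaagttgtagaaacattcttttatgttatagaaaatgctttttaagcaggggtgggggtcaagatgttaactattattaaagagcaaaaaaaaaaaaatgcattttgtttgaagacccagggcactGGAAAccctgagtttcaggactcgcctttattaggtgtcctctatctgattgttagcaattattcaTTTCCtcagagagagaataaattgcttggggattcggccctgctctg

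The upstream *Il4* window held 5 matches to the NFAT core and the *Il13* window held 4. *Csf2* and *Il5* had 2 each and *Il3* had 1, whereas the *Il31* window and the window of the downstream *Il4* start had 0. The core is short, and 55.6% of all 32851 promoter windows of this length hold it at least once. *Il13* was the one gene of the 6 with a TATA box match (12.4% of all windows), where 2 matches on opposite strands overlap 31 to 24 bases before the start. GATAA, the core of a GATA site, was found 2 times for *Il3* and 1 time each for *Csf2* and *Il13*, and in 22.6% of all windows. TGACG, the core of a cyclic AMP response element, was found 1 time, for *Il13* (17.8% of all windows). No match to the AP-1 site TGANTCA (6.75% of all windows), the SRF CArG box (1.47%), the kappa B site (3.9%) or the Ets core CCGGAA (3952 of 32851 windows) was found in the 7 windows searched on both strands. These matches describe letters and not binding, which was not measured here.

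**Figure D2:**
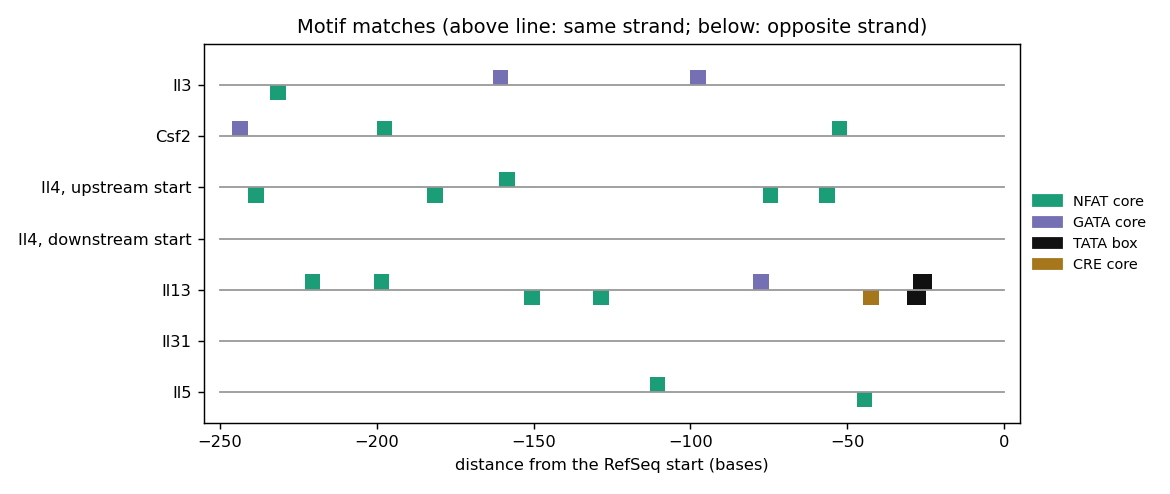
Matches to 4 motifs in the 250 bases before the RefSeq start of 6 cytokine genes, with 2 starts for *Il4* (horizontal axis, distance from the start in bases). Squares above a line lie on the strand of the gene and squares below it on the other strand, and the *Il31* line is empty.

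*Il13* encodes the main effector cytokine of allergic airway inflammation. Its counts were 647 and 798 in unstimulated WT and 36615 and 37665 in stimulated WT. HZ had 275 and 312 before and 30615 and 29579 after stimulation. KO had 488 and 476 before and 26650 and 27856 after. Stimulated and unstimulated libraries lay far apart in every genotype, and the WT libraries were the highest in both states. The stimulated levels were 936 ± 16.6 FPKM in WT, 738 ± 33.0 in HZ and 720 ± 5.06 in KO (SD, n = 2 each).

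*Il4* encodes the cytokine that directs B cells to IgE and T cells to the type 2 fate. Unstimulated libraries held 150 and 156 counts (WT), 250 and 249 (HZ) and 211 and 204 (KO). Stimulated libraries held 631 and 652 (WT), 753 and 727 (HZ) and 605 and 706 (KO). *Il4* was thus already transcribed at rest, where WT was the lowest, and the stimulated groups lay close together. The stimulated levels were 33.3 ± 0.694 FPKM in WT, 37.3 ± 1.65 in HZ and 35.6 ± 3.02 in KO (SD, n = 2 each).

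*Csf2* and *Il3* encode growth factors of the myeloid lineage. *Csf2* had 0 counts in the unstimulated WT and HZ libraries and 1 count in each unstimulated KO library. Stimulated libraries had 694 and 778 counts (WT), 1112 and 1062 (HZ) and 701 and 668 (KO), so that HZ stood above both other groups. *Il3* had 0 counts in all 6 unstimulated libraries, then 189 and 209 (WT), 222 and 276 (HZ) and 98 and 157 (KO) after stimulation. Both KO libraries were below the other 4, but the 2 KO values were far apart.

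*Il31* and *Il25* were also at 0 counts in all 6 unstimulated libraries, which allows up to 3 counts in each. *Il31* then reached 346 and 352 counts with the WT label, 350 and 369 with HZ, and 225 and 218 with KO. WT and HZ could not be told apart, and both KO libraries were lower. *Il25* had 4 and 18 (WT), 6 and 11 (HZ) and 9 and 17 counts (KO), and these groups overlapped. *Il5* had 2 and 4 counts in unstimulated WT and at most 2 in any other library, which is at or near the limit of 3 counts that a count of 0 allows. No change of *Il5* was detectable at this depth in any comparison, and it was not tested.

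The comparison of stimulated with unstimulated libraries addressed how far each cytokine transcript rose after IgE and antigen. No label says whether unstimulated cells held IgE, so effects of IgE loading and of crosslinking by antigen cannot be told apart. *Il4* rose 4.80-fold in WT (95% interval 4.02 to 5.72), 4.07-fold in KO (3.44 to 4.81) and 3.22-fold in HZ (2.74 to 3.79). *Il13* rose 58.9-fold in WT (55.0 to 63.0), 72.9-fold in KO (67.5 to 78.7) and 111-fold in HZ (102 to 122). The *Il13* log2 fold change in WT was 5.88 (SE 0.05, adjusted p = 3.42e-56 edgeR quasi-likelihood test, Benjamini-Hochberg adjusted over 12208 genes). For *Il4* it was 2.26 (SE 0.13, adjusted p = 6.72e-21 by the same edgeR test). These are the 2 genes that had counts at rest.

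The other transcripts were absent or nearly absent at rest, so their folds are bounds against 3 counts in each unstimulated library. *Csf2* was at least 281-fold higher in stimulated WT and at least 394-fold higher in HZ. In KO, with 1 count in each unstimulated library, the *Csf2* ratio was 883 (95% counting interval 244 to 7290). *Il31* was at least 133-fold higher in WT, 131-fold in HZ and 95.2-fold in KO. For *Il3* the bounds were 75.9-fold in WT, 90.8-fold in HZ and 54.6-fold in KO. *Il25*, with few counts, was at least 4.19-fold higher in WT, 3.13-fold in HZ and 5.56-fold in KO. The bounds grow with the counts reached, so they give no order of the true folds.

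In all 3 genotypes, 6 of the 6 tested members passed the threshold as higher (edgeR, adjusted p below 0.05 and at least 1 on the log2 scale), and 0 of 6 as lower. Among all genes, 3.71% passed as higher and 3.06% as lower in WT, 3.73% and 2.88% in KO, and 7.02% and 7.28% in HZ. *Il3*, *Csf2*, *Il31* and *Il25* entered the test only through their stimulated libraries, so this count describes them and does not support the response further. Without stimulated WT replicate 2, which held 18 of the 22 *Il25* counts, *Il25* was no longer called in WT (adjusted p = 0.107, edgeR) and 5 of 6 members were. Of the markers of group 2 innate lymphoid cells, another source of type 2 cytokines, 4 of 4 were in the table, and their sum went from 0.773 to 3.31 CPM in unstimulated to 8.90 to 16.4 CPM in stimulated libraries. *Il7r* (15 to 46, then 63 to 219 counts) and *Areg* (0 to 1, then 165 to 263 counts) were higher in all stimulated libraries. *Rora* had 28 and 4, then 10 and 7 counts in WT, 74 and 69, then 17 and 17 in HZ, and 10 and 12, then 1 and 1 in KO. *Klrg1* had 3 to 28, then 6 to 21 counts. *Siglecf*, an eosinophil marker, went from 3 to 38 counts to 43 to 106 counts, with the other listed eosinophil marker in the table, *Prg2*, at no more than 4. The 5 macrophage and monocyte markers summed to 4.07 to 6.42 CPM, then 8.32 to 12.6 CPM. The part of these markers in the result was not tested. In RNA from a whole culture, more cells of a kind and more RNA per cell cannot be told apart.

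**Figure D3:**
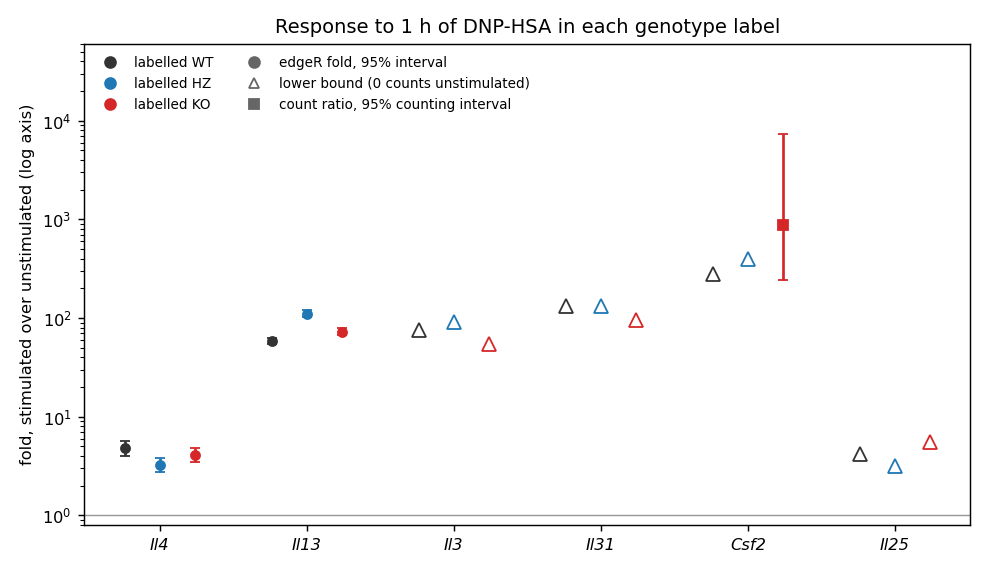
Fold of stimulated over unstimulated libraries (log axis) for the 6 tested cytokine transcripts in each genotype label. Circles are edgeR folds with 95% intervals, open triangles are lower bounds against 3 counts, and the square is the *Csf2* count ratio of 883 in KO with its counting interval. *Il4* had the smallest estimated folds, 3.22 to 4.80.

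The comparisons between genotype labels after stimulation described how the cytokine transcripts differed between libraries of different labels. The origin of the replicates is not given, so an effect of *Elk4* and one of mouse or culture cannot be told apart. *Il13* was lower in both mutant labels by nearly the same amount, *Csf2* was higher in HZ alone, and *Il3* and *Il31* were lowest in KO. Stimulated KO against WT gave a log2 fold change of -0.37 for *Il13* (SE 0.03, 0.771 times WT, adjusted p = 2.83e-13, edgeR) and -0.58 for *Il31* (SE 0.18, 0.667 times WT, adjusted p = 0.00773, edgeR). Neither reached the fold threshold of the study's stimulated comparisons (at least 1.5 or at most 0.66), *Il31* by a narrow margin. *Il3* differed by -0.57 (SE 0.25, adjusted p = 0.0637, edgeR) and did not pass on p, although it passed with a replicate block. Over the alternatives that kept all libraries, its difference ran from -0.61 to -0.52. The KO differences of *Csf2* (-0.03, 95% interval -0.25 to 0.19), *Il4* (0.10, -0.11 to 0.31) and *Il25* (0.31, -1.39 to 2.00) did not pass on p. The *Il25* interval is too wide to exclude a change of either sign. At the full threshold, 0 of 6 members were called in either direction, where 5.44% of all genes were called higher and 7.22% lower. *Mcpt8*, a basophil protease, was called higher in stimulated KO and HZ than in WT (0.95 and 1.01), with 171 and 151 counts (WT), 274 and 318 (KO) and 362 and 317 (HZ). The 4 basophil markers summed to 520 to 523 CPM in stimulated WT, 513 to 521 in KO and 465 to 472 in HZ. The part of these markers in the stimulated values was not tested.

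Single libraries decided some of these calls. Without stimulated KO replicate 1, *Il31* passed the full threshold as lower in KO than in WT (-0.63, adjusted p = 0.0305, edgeR). Without stimulated KO replicate 2, *Il3* did so (-0.92, adjusted p = 0.0218, edgeR), and without KO replicate 1 its difference shrank to -0.29 (adjusted p = 0.492, edgeR).

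Stimulated HZ against WT gave 0.50 for *Csf2* (SE 0.11, 1.41 times WT, adjusted p = 0.00021, edgeR) and -0.37 for *Il13* (SE 0.03, 0.774 times WT, adjusted p = 7.31e-13, edgeR). Both were short of the fold threshold, so 0 of 6 members were called, where 3.56% of all genes were called higher and 4.33% lower. *Il3* (0.26, 95% interval -0.22 to 0.75), *Il4* (0.14, -0.07 to 0.35) and *Il31* (-0.02, -0.37 to 0.33) did not pass. For *Il13*, HZ and KO were about equally far from WT.

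The direct comparison of stimulated KO with HZ showed where the 2 mutant labels parted. *Il3* was lower in KO, with a log2 fold change of -0.84 (SE 0.25, 0.559 times HZ, adjusted p = 0.00919, edgeR), and was the 1 member of 6 called, where 3.51% of all genes were called lower and 1.81% higher. This call was lost without stimulated HZ replicate 2 (-0.59, adjusted p = 0.218, edgeR) and without stimulated KO replicate 1 (-0.56, adjusted p = 0.205, edgeR). *Csf2* (-0.53, SE 0.11, adjusted p = 0.000133, edgeR) and *Il31* (-0.56, SE 0.18, adjusted p = 0.0162, edgeR) passed on p and not on fold. *Il31* passed both without stimulated HZ replicate 1 (-0.67). *Il13* differed by -0.01, with a 95% interval of -0.07 to 0.06.

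**Figure D4:**
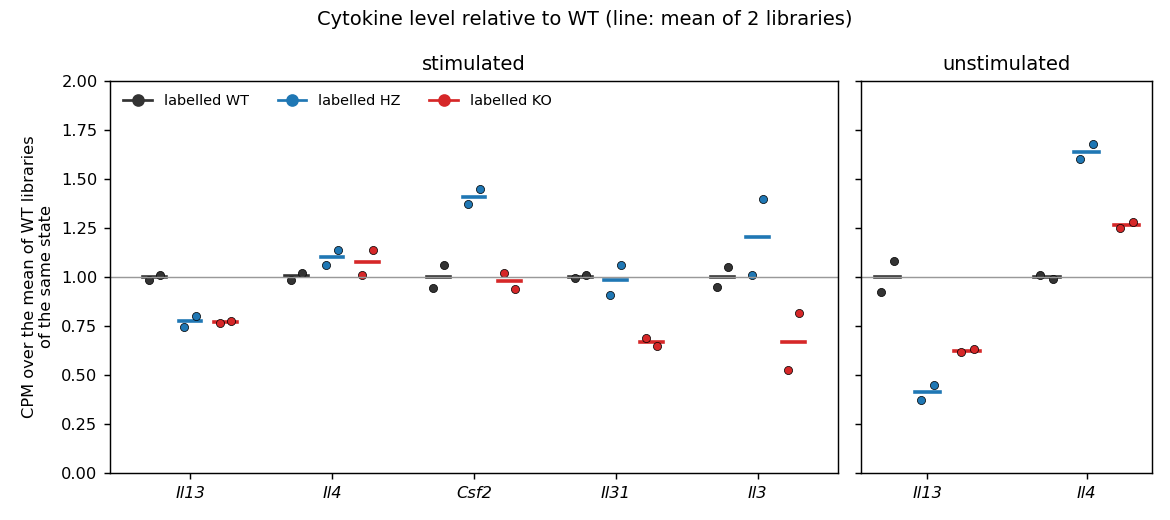
Normalized counts of 5 cytokine transcripts in each stimulated library (left) and of the 2 that had counts at rest in each unstimulated library (right), divided by the mean of the WT libraries in the same state (vertical axis, ratio). Points are libraries and lines are means of 2. At rest *Il13* lay below WT and *Il4* above it in HZ and KO, with HZ farther from WT for both.

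At rest, *Il13* and *Il4* differed between the genotype labels in opposite directions. *Il13* stood at 19.6 ± 2.23 FPKM in WT, 12.1 ± 0.237 in KO and 7.79 ± 0.963 in HZ (SD, n = 2 each). *Il4* stood at 8.58 ± 0.0576 FPKM in WT, 10.7 ± 0.144 in KO and 13.6 ± 0.434 in HZ (SD, n = 2 each). The order of the labels for one gene was the reverse of that for the other, and the libraries of the 3 labels did not overlap for either. *Il13* fell by 1.29 on the log2 scale from WT to HZ (SE 0.07, adjusted p = 1.45e-20, edgeR) and was called, as 1 of the 2 members with counts at rest, where 5.32% of all genes were called lower and 3.83% higher. KO against WT gave -0.68 for *Il13* (SE 0.07, adjusted p = 1.93e-12, edgeR), which missed the 2-fold threshold of the unstimulated comparisons. Neither of these 2 members was called in that comparison, where 2.64% of genes were called higher and 4.87% lower. *Il4* gave 0.71 in HZ against WT (SE 0.14, adjusted p = 1.45e-05, edgeR) and 0.34 in KO against WT (SE 0.14, adjusted p = 0.0406, edgeR), both under the fold threshold. In KO against HZ, *Il13* differed by 0.61 and *Il4* by -0.37, with 0 of the 2 called, where 1.29% of genes were called higher and 2.06% lower.

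The ratio of *Il13* to *Il4* within each library needs no scaling between libraries. Its order at rest follows from the opposite orders of the 2 genes given above, so it is a description and no further support. Unstimulated libraries had ratios of 2.10 and 2.49 (WT), 1.12 and 1.13 (KO) and 0.534 and 0.609 (HZ). The unstimulated HZ libraries were the 2 that held less *Il13* than *Il4* per length. After stimulation the ratio was 28.2 and 28.1 (WT), 21.4 and 19.2 (KO) and 19.8 and 19.8 (HZ), so that the mutant labels overlapped and WT stood above both.

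**Figure D5:**
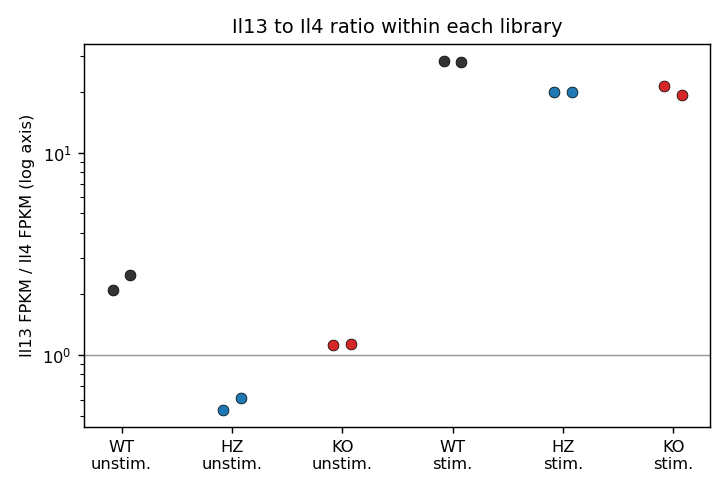
Ratio of *Il13* to *Il4* in FPKM (vertical log axis) within each of the 12 libraries, by genotype label and stimulation, with black for WT, blue for HZ and red for KO. The grey line marks a ratio of 1, below which the unstimulated HZ libraries lie at 0.534 and 0.609.

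Some other transcripts also differed between the labels at rest. *Fos*, an AP-1 subunit, had 520 and 499 counts in unstimulated WT, 253 and 209 with the KO label and 84 and 90 with HZ, the same order as *Il13*. *Egr2*, an immediate-early transcription factor, had 8767 and 8765 counts in unstimulated WT, 2761 and 2454 in KO and 724 and 757 in HZ. Other transcription factors went the other way. *Gata3* had 172 and 207 counts in unstimulated WT, 350 and 294 in KO and 354 and 301 in HZ. *Maf* had 108 and 134 (WT), 114 and 136 (KO) and 217 and 260 (HZ). Of the 24 factors tested, on adjusted p alone, 5 were higher and 16 lower in unstimulated KO than in WT, and 8 and 12 in HZ. Beside *Il4*, the basophil protease *Prss34* had 14 and 17 counts in unstimulated WT, 44 and 27 in KO and 56 and 34 in HZ, and *Mcpt8* had 155 and 195 (WT), 289 and 302 (KO) and 188 and 209 (HZ). *Itga2*, another basophil marker, had 10 and 16 counts (WT), 7 and 1 (KO) and 2 and 6 (HZ). Of the 4 listed basophil markers, 4 were in the table, and their sum was 596 to 601 CPM in unstimulated WT, 470 to 473 in KO and 673 to 674 in HZ, most of it *Cd200r3*, so that the sum was lowest in KO whereas *Il4* was lowest in WT. *Prss34* was called higher in unstimulated HZ than in WT (log2 fold change 1.53, adjusted p = 0.0135, edgeR), and gave 1.09 in KO against WT (adjusted p = 0.0977, edgeR). *Mcpt8* gave 0.66 in KO against WT (adjusted p = 0.0005, edgeR) and 0.19 in HZ against WT (adjusted p = 0.331, edgeR). The part of these transcripts in the *Il13* and *Il4* values was not tested.

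The response to stimulation itself was compared between labels by interaction terms, which could be estimated for *Il13* and *Il4* alone. In KO, *Il13* rose more than in WT by 0.31 on the log2 scale (SE 0.07, adjusted p = 0.00322, edgeR), and it was the 1 member called, where 5.44% of all genes were called higher and 3.83% lower. Without unstimulated WT replicate 2 this difference was 0.17 (adjusted p = 0.242, edgeR), and the call was also lost by DESeq2 (0.30, adjusted p = 0.105) and in the 3 limma fits on FPKM. In HZ, *Il13* rose more than in WT by 0.92 (SE 0.08, adjusted p = 1.92e-13, edgeR), whereas the *Il4* response was smaller, with a difference of -0.57 (SE 0.17, adjusted p = 0.00584, edgeR). These were 1 member called in each direction, where 19.9% of all genes were called higher and 18.6% lower, so calls of this kind were common. The KO response of *Il13* differed from the HZ response by -0.61 (SE 0.09, adjusted p = 5.11e-08, edgeR), where 21.3% of all genes were called lower and 20.2% higher. The KO and WT responses of *Il4* differed by -0.24 (95% interval -0.59 to 0.11), and those of KO and HZ by 0.34 (0.00 to 0.67, adjusted p = 0.103, edgeR). The larger *Il13* folds of HZ and KO went with lower resting levels, and their stimulated levels were below that of WT.

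The receptor chains of these cytokines were measured in the same libraries. Of 13 listed chains, 11 were in the table and 8 passed the filter on low counts. The common beta chain *Csf2rb* and the related *Csf2rb2* were the most abundant, at 845 to 1460 and 1710 to 2820 FPKM over the group means. These 2 genes are close paralogs, so the split of reads between them is uncertain. *Il3ra*, the alpha chain of the IL-3 receptor, stood at 36.8 to 52.7 FPKM, *Csf2ra* at 1.77 to 2.33 FPKM and *Il5ra* at 0.376 to 1.35 FPKM. *Il4ra*, the chain shared by IL-4 and IL-13, stood at 242 ± 1.19 FPKM in unstimulated WT, 363 ± 1.91 in HZ and 304 ± 2.24 in KO (SD, n = 2 each), and *Il2rg* at 156 to 235 FPKM. *Il17ra*, a chain of the IL-25 receptor, stood at 15.9 to 35.3 FPKM, whereas *Il17rb*, *Il13ra1* and *Il31ra* had at most 4 counts in any library. *Il13ra2* and *Osmr* were not analysed here.

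None of the 8 tested chains were called in the WT or KO response, and 1, *Il5ra*, was called lower in HZ (-1.08, SE 0.28, adjusted p = 0.000706, edgeR), where 7.28% of all genes were called lower. Of all genes, 3.71% were called higher and 3.06% lower in WT, and 3.73% and 2.88% in KO. *Il5ra* had 112 and 114 counts in unstimulated HZ and 47 and 51 in stimulated HZ. It fell by less than 2-fold in WT (-0.89, adjusted p = 0.00403, edgeR) and KO (-0.81, adjusted p = 0.0178, edgeR). Its HZ and WT responses differed by -0.19 (SE 0.38, adjusted p = 0.741, edgeR). The median log2 fold change of the 8 chains was -0.20 in WT, -0.13 in KO and -0.53 in HZ, where that of all tested genes was -0.01, -0.01 and 0.00. None of the 8 were called between genotype labels in either state, where 1.29% to 7.22% of all genes were called in each direction. On adjusted p alone, 1 was higher and 2 lower in stimulated KO than in WT, and 4 and 1 in unstimulated HZ than in WT. *Il4ra* was higher in both (0.48, adjusted p = 1.69e-22, and 0.63, adjusted p = 1.39e-27, edgeR). Of the 9 JAK and STAT genes under these receptors, 0 were called in any response or in any comparison of labels within a state, at thresholds that include a fold. Their median log2 fold change was -0.11 in WT, -0.05 in KO and -0.32 in HZ. By interaction, the HZ response was called below that of WT for 6 of the 9 and above it for 1. The receptor chains gave 5 and 0 of 8, where 18.6% of all genes were called lower and 19.9% higher. The KO response was called above that of HZ for 6 of the 9 and 6 of the 8 chains, and below it for 0. Of all genes, 20.2% were called higher and 21.3% lower there. KO against WT gave 0 of the 9, and 2 of the 8 chains above (5.44% of all genes).

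Of 8 feedback and target genes of JAK-STAT signalling tested, 5 were called higher in WT, 6 in KO and 4 in HZ, where 3.71%, 3.73% and 7.02% of all genes were called higher. Their median log2 fold changes were 1.07, 1.17 and 1.05, against -0.01, -0.01 and 0.00 over all tested genes. *Socs1* and *Bcl2l1*, an inhibitor of JAK kinases and a survival gene, passed on p alone in the other direction, with log2 fold changes of -0.72 (adjusted p = 1.14e-12, edgeR) and -0.27 (adjusted p = 0.000717, edgeR) in WT. *Osm*, a cytokine gene induced through STAT5, rose by 4.00 in WT (SE 0.03), 4.26 in KO and 4.62 in HZ. *Socs3*, an inhibitor of cytokine receptors, rose by 3.60 (SE 0.09), 3.48 and 4.96, and *Cish*, an inhibitor that acts on STAT5 signalling, by 1.96 (SE 0.03), 2.32 and 2.37. Scaling by library totals or limma on FPKM left 3 of 8 called higher in WT. In stimulated cells, 2 of 8, *Socs2* and *Osm*, were called lower in KO than in WT, and 2 of 8 in HZ than in WT, where 7.22% and 4.33% of all genes were called lower.

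Of 26 listed transcription factors known to act on type 2 cytokine genes, 24 were tested. In each of the 3 responses 9 were called higher, where 3.71% (WT), 3.73% (KO) and 7.02% (HZ) of all genes were, and 1, *Maf*, was called lower in HZ (7.28% of all genes). *Fos* rose by 5.18 in WT (SE 0.05), 6.34 in KO and 7.99 in HZ, *Egr2* by 3.82 (SE 0.03), 5.15 and 7.12, and *Egr1* by 3.12 (SE 0.02), 4.03 and 5.13. The other 6 called higher were the AP-1 genes *Fosb*, *Fosl1*, *Fosl2*, *Jun* and *Junb* and the NF-kappa B gene *Rel*. The 3 GATA and 3 NFAT genes tested were not called in any response, although *Gata2* had 29441 to 59354 counts and *Gata3* 79 to 354 counts. The median over the 24 was 0.29 in WT, 0.46 in KO and 0.21 in HZ. In unstimulated cells, 2 of 24 were called lower in KO than in WT (*Fos* and *Egr2*) and 7 of 24 in HZ than in WT, where 4.87% and 5.32% of all genes were called lower. Other AP-1 and NF-kappa B genes of the list were not called in WT, with log2 fold changes of 0.31 for *Jund*, -0.03 for *Batf*, 0.28 for *Nfkb1* and -0.10 for *Rela*.

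Of 13 listed neighbours of the cytokine genes in the chromosome 11 cluster, 9 were tested. None of the 9 were called in the WT or KO response, and 1, *Irf1*, was called lower in HZ (-1.08, adjusted p = 5.71e-11, edgeR), where 7.28% of all genes were. Of all genes, 3.71% were called higher and 3.06% lower in WT, and 3.73% and 2.88% in KO. By interaction, the HZ response was called above that of WT for 3 of 9 and below it for 2, where 19.9% and 18.6% of all genes were. *Rad50* lies between *Il13* and *Il5* and is known to hold a control region of the locus. It had 2536 and 2640 counts in stimulated WT against 2819 and 3055 in unstimulated WT. In the same order it had 2712 and 2619 against 1910 and 1709 in HZ, and 2015 and 2140 against 2540 and 2333 in KO. *Kif3a*, beside *Il4*, had 514 and 479 against 527 and 575 in WT. These counts are not scaled. Library sizes after TMM scaling were 29705094 and 29781937 in stimulated WT and 33131745 and 34984407 in unstimulated WT, so the lower WT counts alone show no fall. In stimulated cells, 3 of 9 neighbours, *P4ha2* (-0.81), *Irf1* (-0.69) and *Septin8* (-0.69), were called lower in KO than in WT, where 7.22% of all genes were.

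Across the 12 libraries, the transcripts most like each member by Pearson correlation of log2(CPM + 1), among 10248 genes, were named by a fixed rule. They were *Topors* (0.9993) and *Il6* (0.9988) for *Il13*, *Bcl2l11* (0.9918) and *Gdf15* (0.9905) for *Il4*, and *Ier3* (0.9993) and *Rcan1* (0.997) for *Csf2*. For *Il31* they were *Tnfsf14* (0.9971) and *Tnfsf9* (0.9966), and for *Il3* *Tnfsf14* (0.9883) and *Ier3* (0.988). The 7 members were left out of that ranking. Among the 5 members compared, *Csf2* and *Il31* were the most alike (0.996) and *Il4* and *Il13* the least alike (0.9506). These correlations are a description: the points share the step from 6 unstimulated to 6 stimulated libraries, which sets most of each value.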

How the data were processed

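RNA-seq was carried out on 12 BMMC libraries. The submitters' processing notes name fastp, HISAT2, HTSeq and GRCm39, with versions, options and annotation not given in the sources used here, so reads of an overlapping antisense gene may not be separable. The authors deposited raw read counts per gene, with no normalization. The authors also deposited FPKM values, which scale the counts by gene length and library total, and these served for levels compared between genes. Groups followed the genotype and treatment labels, and the labels name no batch.

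Counts were fitted in R 4.3.3 with edgeR 4.0.16 (filterByExpr, TMM, quasi-likelihood test, prior count 0.125, Benjamini-Hochberg adjustment) in a model with a mean for each of 6 groups, which left 12208 genes. Calls took an adjusted p below 0.05 with a log2 fold change of at least 1, or, between stimulated groups, a fold of at least 1.5 or at most 0.66, and for interactions no fold threshold. The biological coefficient of variation was 4.01%. Folds against 0 counts are bounds against 3 counts per library. The count intervals (95%, exact) and bounds cover counting error only. The scripts were tested on simulated data.

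Alternatives were DESeq2 1.42.0, limma 3.58.1 on FPKM (log2 after adding 1 or 0.1, keeping genes whose mean reached 0.5, or all genes after adding 1), DESeq2's size factors, library totals, no filter, at least 10 counts in 2 libraries, a prior count of 2, a stricter adjusted p (0.01), calls without the fold, a fit of the groups compared, replicate blocks and leaving out each replicate. Named genes were the 7 members, the tested receptor chains, up to 3 members of each other list with the largest WT response among those called, and the 2 genes most correlated with each member. *Socs1*, *Bcl2l1*, *Socs2*, *Maf*, *Irf1*, *P4ha2*, *Septin8*, *Rad50*, *Kif3a*, the further AP-1 and NF-kappa B genes, *Gata2*, *Gata3* and the single markers were named after their values were seen. The members and lists were chosen with earlier results of these data known.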

Additional observations from a re-analysis of the deposited data

Results flagged for a closer look

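Interaction terms of the 6-group edgeR model differed between genotype labels for *Il13* and *Il4*, the 2 cytokine genes with counts at rest. For *Il13*, the log2 response of KO exceeded that of WT by 0.31 (a call lost by DESeq2, by the 3 limma fits and without unstimulated WT replicate 2), the response of HZ exceeded that of WT by 0.92, and that of KO was below that of HZ (-0.61). For *Il4*, the HZ response was below the WT response (-0.57). In each case 2 of 2 stimulated libraries lay above 2 of 2 unstimulated ones, so the responses differ in size and not in direction. The libraries that enter these differences are 647 and 798 (unstimulated WT), 488 and 476 (KO) and 275 and 312 counts (HZ) for *Il13*, and 150 and 156, 211 and 204, and 250 and 249 counts for *Il4*, against the stimulated counts given above. Groups of 2 libraries allow no test for a deviating library.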

How the results depend on the processing

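The count of members called higher after stimulation was 5 or 6 of 6 in each label under every alternative run, and the member lost was *Il25*. Replacing TMM by library totals moved the median response of all genes by -0.308 (WT), -0.289 (KO) and -0.232 (HZ) on the log2 scale, under which the *Il13* and *Il4* responses kept their direction and calls. Members lower in stimulated KO than in WT, 0 in the main result, numbered 2 without a fold threshold, 1 with a replicate block, 1 with a replicate block within genotype, 1 by limma on log2(FPKM + 0.1) and 0 to 1 with single libraries left out. Those lower in stimulated KO than in HZ, 1 in the main result, numbered 3 without a fold threshold and 0 to 2 with single libraries left out. Without a fold threshold, stimulated HZ against WT had 1 member higher and 1 lower, unstimulated KO against WT 1 and 1, unstimulated KO against HZ 1 and 1, and unstimulated HZ against WT 1 higher. The larger *Il13* response of KO than of WT, 1 member called, gave 0 by DESeq2 (0.30, adjusted p = 0.105) and 0 by limma on log2(FPKM + 1), on log2(FPKM + 1) with no filter and on log2(FPKM + 0.1), and 0 to 1 with single libraries left out. In KO against HZ, limma on log2(FPKM + 1) and on log2(FPKM + 0.1) each called 1 larger response, that of *Il4*. The cause of these changes was not tested beyond the setting itself.

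Small differences changed sign. In stimulated KO against WT, leaving out single libraries gave *Csf2* values from -0.11 to 0.05 (0.03 without KO replicate 2) and *Il25* values from -0.40 to 1.74 (-0.19 without KO replicate 2). In stimulated HZ against WT, *Il31* was 0.01 with library totals, 0.00 in the 3 limma fits and -0.14 to 0.09 with single libraries left out, and *Il25* then ran from -1.12 to 1.01 (0.01 without HZ replicate 1). In stimulated KO against HZ, *Il4* ran from -0.13 to 0.05 with single libraries left out (0.01 without HZ replicate 2), and *Il13* from -0.06 to 0.04 (0.00 without KO replicate 1), with 0.00 by DESeq2 or its size factors. No difference that reversed was called. The deviations of libraries with the same replicate number did not go together (r = -0.0305 in WT, -0.011 in KO and 0.0696 in HZ, across 9858 genes). No pairing by number was thus detectable, which does not exclude that same-numbered libraries share a culture. With the block, *Il3* passed as lower in stimulated KO than in WT (-0.60, adjusted p = 0.044 by edgeR), and with the block within genotype likewise (-0.61). With 2 libraries per group, *Il25* and *Il5* stayed at the limit of depth.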
